A study of Rattus norvegicus with 59 samples.

Results

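The comparison of silica with air lungs at 12 months after exposure used 10 libraries of the 59 in the series, 5 from rats that had inhaled crystalline silica (spelled silca in the labels) and 5 from rats that had inhaled air. They were chosen by their labels for time and treatment, and every gene of the deposited expression table entered the comparison. All rats were male Fischer F344 (F344/DuCrl) animals, 3 months old at purchase, and both groups were held in whole-body inhalation chambers on 5 days for 6 h per day, the silica rats at 15 mg/m3. Each library held the RNA of a piece of 1 rat's lung, so every value is an average over all the cell types of that piece, from 1 sex and 1 strain. The comparison asks which genes still differed at 12 months after the 5 exposure days, and how that difference compares with the one at the times around it. The other groups of the series, silica and air rats of the same strain at 1, 3, 6, 9 and 18 months, entered the estimate of the spread and the comparison between times. One of the 5 silica libraries, replicate 3, lay near the air libraries, so most results are given both with all 5 silica libraries and without it. A value in parentheses after a log2 change is the same change without replicate 3.

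Crystalline silica reaches the alveoli as fine particles that macrophages take up and cannot digest. Damage to their lysosomes releases inflammatory signals that draw neutrophils and further macrophages into the lung, and the dust stays in the tissue long after exposure has ended. In silicosis this goes with growth of the surfactant-producing alveolar type 2 cells, with surplus surfactant, and with fibrotic nodules in which transforming growth factor beta drives the deposition of matrix.

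The table held 2887 complete entries in FPKM (fragments counted per kilobase of transcript and scaled to the mapped total of the library). The test covered 1278 of them (44.3%), those that reached 1 FPKM in 4 or more of the 59 libraries. Of 2061 names that matched a rat gene table, 99.3% lay on chromosome 1, so genes of other chromosomes were not analysed here, and of 36 cell type markers 28 were present. Lung epithelium was represented by Napsa, among others, while surfactant protein C, Scgb1a1 of club cells and Pecam1 of endothelium were not analysed here. In the 12-month libraries 1766 to 1819 entries were above 0. Relative depth, read from the spacing of low values, was 0.81 to 1.13 in air and 0.713 to 1.03 in silica, lowest in silica replicate 3, and did not differ detectably between the groups (exact two-sided permutation p = 0.127, with 0.00794 the smallest that 5 against 5 allows). A gene was called when its adjusted p in limma, which tests the log2(FPKM + 0.5) values against a spread shared by all 12 groups, was under 0.05. Log2 changes are silica minus air on that scale, given with the standard error (SE), and understate the change of low genes.

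Silica replicate 3 was compared with the other libraries on the 393 genes called at 9 months, a contrast of other rats, although replicate 3 is among the libraries from which the shared spread was estimated. For these genes each 12-month library was placed on a scale where 0 is the 12-month air mean and 1 is the shift that silica produced at 9 months. The median position was 1.11, 0.572, 1.02 and 0.926 in silica replicates 1, 2, 4 and 5. It was -0.168 in replicate 3, beside the lowest air library. The 5 air libraries, each set against the other 4, lay between -0.159 and 0.182. Replicate 3 lay within the air range for 65.6% of the 393 genes, against 19.1% to 38.9% for the other silica libraries and 52.4% to 74.3% for single air libraries. Beyond the air range on the silica side it had 40 genes, where the other silica libraries had 236 to 317 and single air libraries 46 to 121. On the opposite side replicate 3 had 95, the other silica libraries 1 to 4 and single air libraries 33 to 122. Silica libraries were set against the range of all 5 air libraries and each air library against the other 4. A range of 4 leaves more values outside, so counts of air and silica libraries are not like for like. On the 457 genes called at 12 months without it, with 1 set to the shift of the other silica libraries, its median position was -0.115. Computed likewise, the median was 1.48, 0.805, 1.4 and 1.22 for replicates 1, 2, 4 and 5, each on the genes called without it. Their unit was a shift to which replicate 3 contributed, so these values are not on the same scale as that of replicate 3. Over all tested genes the values of replicate 3 correlated with those of air libraries at a median of r = 0.960 and with those of the other silica libraries at 0.939, while air libraries correlated with each other at 0.968 and the 4 other silica libraries at 0.960, correlations across genes within library pairs. Silica replicate 2 lay between the groups, with 38.9% of the genes inside the air range. The labels give replicate 3 no mark of its own, and what sets it apart was not tested. As it was singled out by its values, the results without it stand beside those with all 5 and do not replace them.

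**Figure D1:**
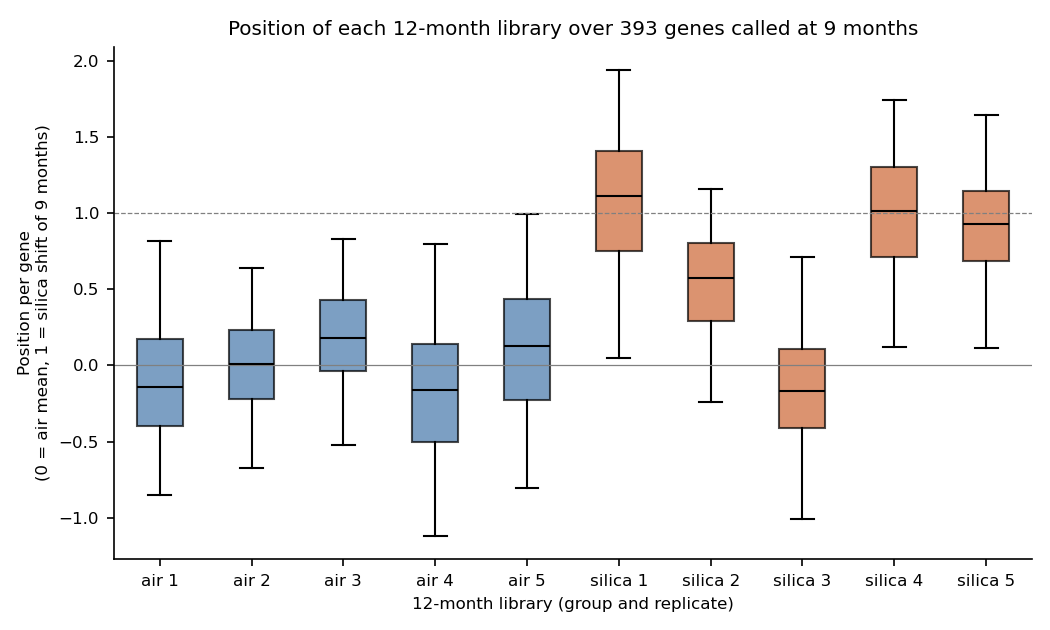
Position of each 12-month library (x axis) over the 393 genes called at 9 months, on a scale (y axis) where 0 is the 12-month air mean and 1 the silica shift of 9 months; boxes give the median and quartiles over genes and whiskers the 5th to 95th percentile. The box of silica replicate 3 (median -0.168) lies at the level of the 5 air libraries, and those of silica replicates 1, 4 and 5 lie near 1.

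With all 5 silica libraries 302 genes were called at 12 months, 23.6% of the 1278 tested, of which 186 were higher (14.6%) and 116 lower (9.08%) in silica. Without replicate 3 the number was 457 (35.8%), 280 higher (21.9%) and 177 lower (13.8%). The 2 sets shared 300 genes, 157 were called only without replicate 3 and 2, Plekha7 and LOC100909406, only with it. All 459 genes of either set had the same sign in both fits, and 286 of the 300 shared genes changed more without replicate 3, by a median factor of 1.25. The fits differ only in replicate 3, which lay near air. Equal signs and larger changes without it therefore follow largely from leaving it out. Changes were mostly small. Of the calls, 14 were rises of log2 1 or more (29 without replicate 3), and 0 were falls of that size (1 without replicate 3). The FPKM ranges of the 5 silica and 5 air libraries did not overlap for 43 genes (3.36%), 21 higher (1.64%) and 22 lower (1.72%), and without replicate 3 for 281 (22%), 190 higher (14.9%) and 91 lower (7.12%). The share of calls in the higher direction, 61.6%, depended on the scaling of the libraries. It was 47.6% (169 higher, 186 lower) after each library was centred on its median and 43.4% (147 higher, 192 lower) after quantile normalization. Either scaling lowered the median change of all tested genes to about -0.03 and -0.04.

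**Figure D2:**
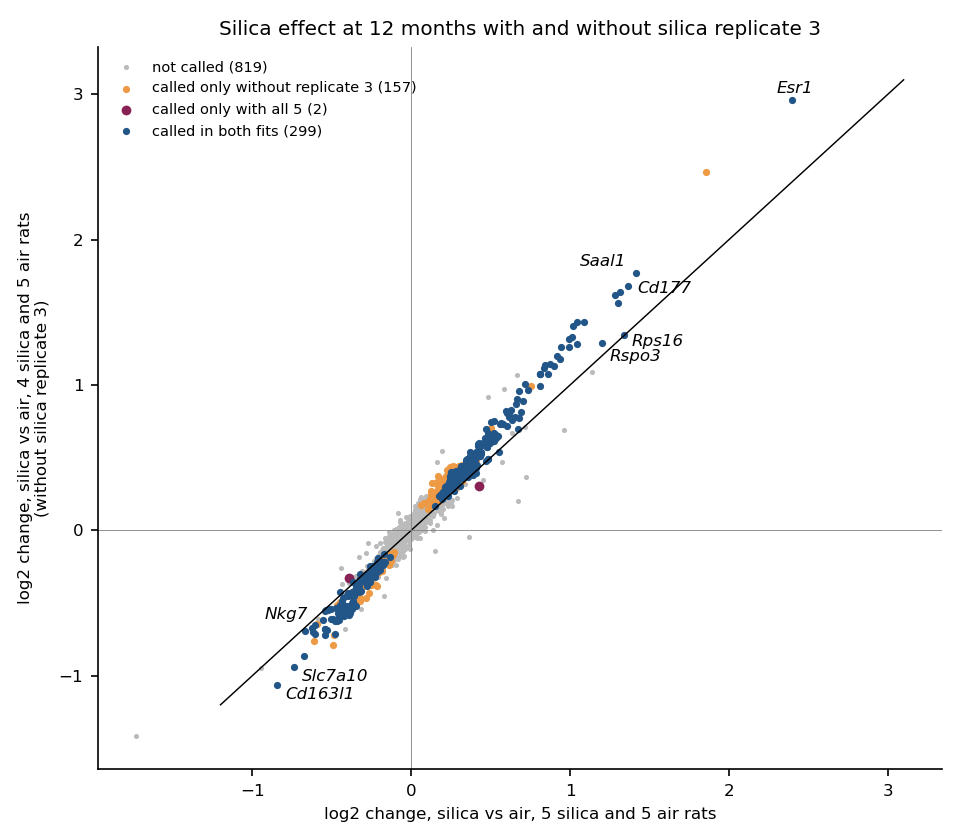
Log2 change between silica and air at 12 months for each tested gene, with all 5 silica rats (x axis) and without silica replicate 3 (y axis), coloured by the fit in which the gene was called; the line marks equal values and Trnae-cuc, a transfer RNA entry beyond the plotted range and called in both fits, is left out. Points called in both fits lie mostly farther from 0 on the y axis, while Rps16 and Rspo3 lie on or near the line.

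The calls rested on the spread shared by all 12 groups. In a fit of the 10 libraries of 12 months alone 1 gene was called, Rspo3, and 309 had an unadjusted p under 0.05. In such a fit without replicate 3, 294 genes were called, and 288 of them were among the 457. A gene has the same change in both fits, which differ in the spread alone, so its direction could not differ. Leaving out air replicates 1 to 5 in turn left 253 to 293 calls, and leaving out silica replicate 1, 2, 4 or 5 left 195, 293, 198 and 231.

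Apart from Trnae-cuc, a transfer RNA entry listed at 0 in all air libraries, the largest change belonged to Esr1, the gene of estrogen receptor alpha, a hormone-activated transcription factor. It stood at 0.458, 0.318, 0.406, 0.309 and 0.366 FPKM in air replicates 1 to 5 and at 8.54, 3.89, 7.7 and 5.91 in silica replicates 1, 2, 4 and 5, with 0.469 in silica replicate 3. Each of the 4 was more than 8 times the highest air value, and replicate 3 lay just above it. The log2 change was 2.40 ± 0.28 (limma adjusted p = 1.98e-08), and 2.96 ± 0.18 (adjusted p = 5.12e-19) without replicate 3. These SE and p values rest on the spread shared by all 12 groups, not on that of the 12-month rats. In the fit of the 12-month libraries alone Esr1 was not called with all 5 silica libraries (limma adjusted p = 0.1004). It was called in such a fit without replicate 3. In whole lung, more cells of a type and more RNA per cell cannot be told apart, here and in all that follows. Srd5a1, an enzyme that turns testosterone into dihydrotestosterone, stood at 1.72, 2.48, 2.53, 2.28 and 2.55 in air and at 5.9, 4.67, 2.32, 5.92 and 5.15 in silica, with the low silica value again in replicate 3. It rose by 0.86 ± 0.13, and by 1.08 ± 0.11 without that library, and Sult1a1, a sulfotransferase and the last tested gene of the sex steroid list, changed by -0.17 without being called.

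Cd177, a surface glycoprotein of neutrophils, stood at 8.07, 11.9, 16.3, 9.96 and 15.2 FPKM in air and at 46.8, 31.8, 12.7, 39.8 and 40.5 in silica. Without replicate 3 the lowest silica value was nearly 2 times the highest air value, and replicate 3 fell inside the air range. Cd177 rose by 1.36 ± 0.23 (limma adjusted p = 2.14e-05), and by 1.68 ± 0.20 without replicate 3. Ceacam10, a small adhesion molecule of the carcinoembryonic antigen family, rose from a narrow air range of 1.9 to 2.14 to 8.43, 4.37, 5.97 and 7.46 in the 4 silica libraries, but stood at 1.27 in replicate 3, below every air rat. Its change was 1.04 with all 5 and 1.43 without replicate 3. Unnamed entries followed both genes, LOC100909700 and LOC103691058 at 1.32 (1.64) and 1.30 (1.56) and LOC103689942 at 1.02 (1.41). Whether these entries share reads with the named genes was not tested.

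**Figure D3:**
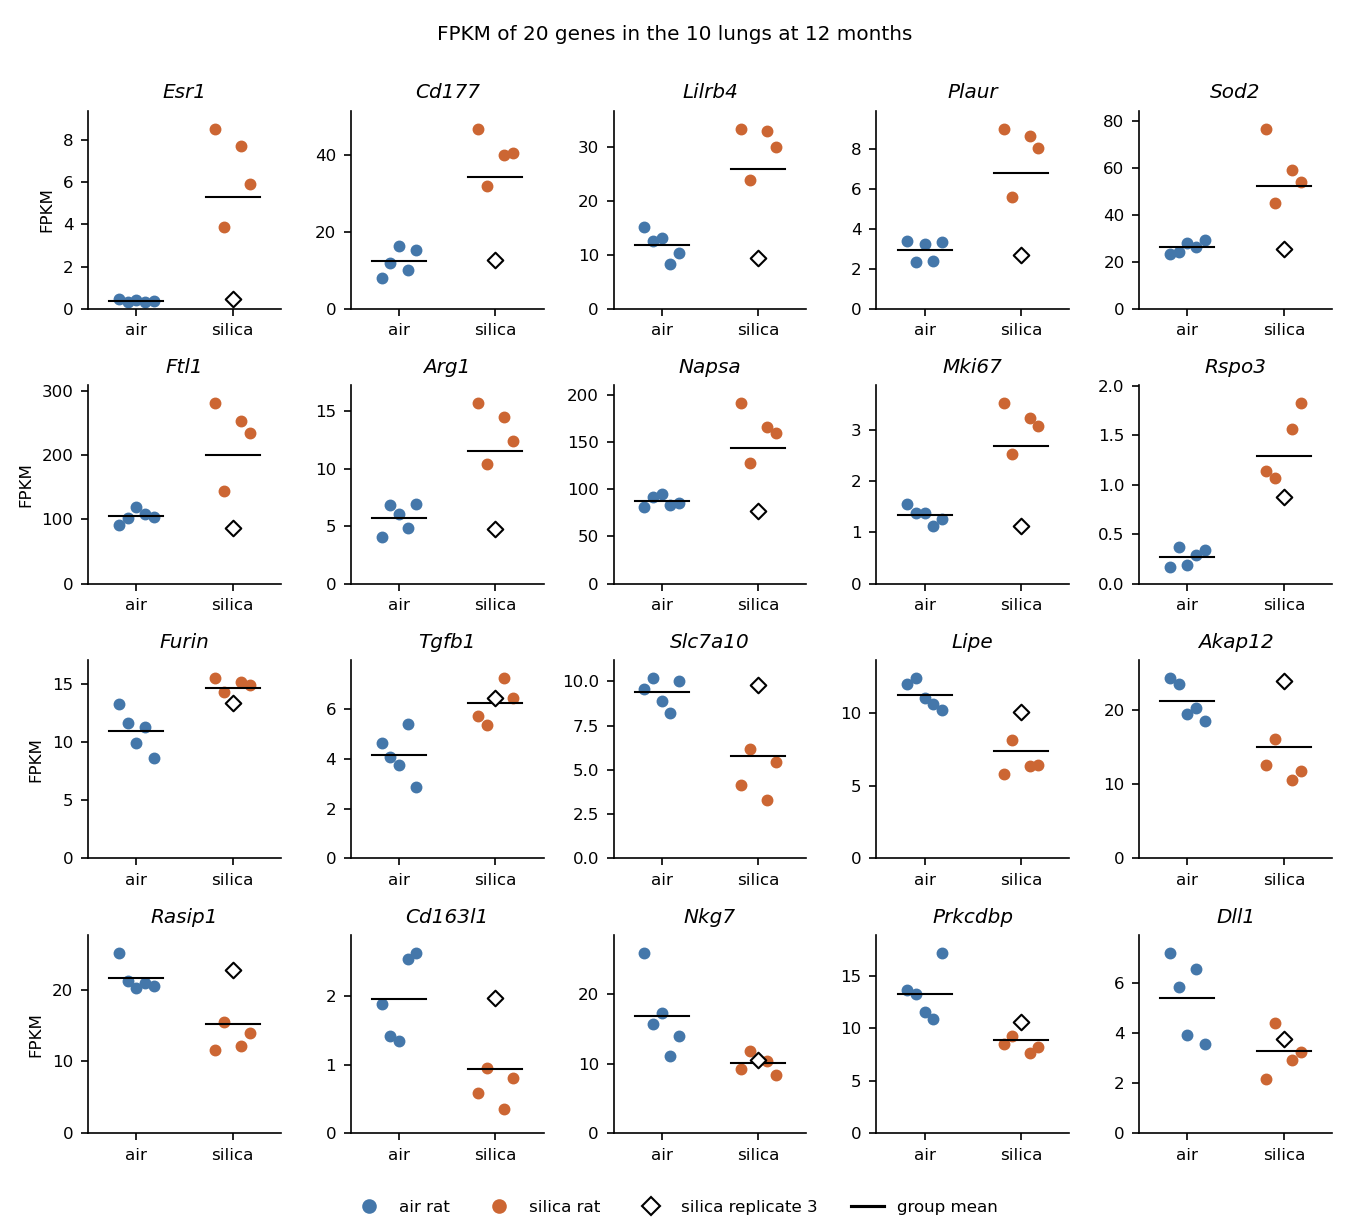
FPKM (y axis, from 0) of 20 genes in the 5 air and 5 silica rats of 12 months, with silica replicate 3 as an open diamond and a line at each group mean over 5 rats. In most panels 4 silica rats lie to one side of all air rats and replicate 3 lies with the air rats. In Rspo3, Tgfb1, Furin, Nkg7 and Dll1 replicate 3 lies nearer to the other silica rats, and in Prkcdbp it lies between the groups.

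Of the 21 tested myeloid surface receptors, 11 rose and 2 fell with all 5 silica libraries, and 12 rose and 2 fell without replicate 3. Of all tested genes 14.6% rose and 9.08% fell, and 21.9% and 13.8% without replicate 3. These shares stand beside every list count below. The median change was 0.26 (0.37 without replicate 3), against 0.0065 (0.024) over all tested genes. Lilrb4, an inhibitory immunoglobulin-like receptor, stood at 15.1, 12.6, 13.1, 8.28 and 10.2 FPKM in air and at 33.3, 23.8, 9.31, 32.8 and 29.9 in silica and rose by 0.99 ± 0.19 (limma adjusted p = 0.00014), or by 1.32 without replicate 3. Its 4 high silica values did not overlap with air, and replicate 3 lay inside the air range. Cd33, a sialic acid-binding inhibitory receptor, rose by 0.81 (1.08 without replicate 3), C5ar1 and C5ar2, the receptors of the complement fragment C5a, by 0.60 (0.81) and 0.43 (0.60), and Tyrobp, the adaptor through which many of these receptors signal, by 0.50 (0.75). Oscar, an activating receptor that binds collagen, was the member that separated the groups with replicate 3 included. It ranged over 0.416 to 0.797 in air and 0.846 to 1.48 in silica, with replicate 3 lowest among the silica values, and rose by 0.68 ± 0.13 (0.77).

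The 2 members that fell were Cd163l1 and Lilrb3l. Cd163l1, a receptor of the cysteine-rich scavenger family, stood at 1.88, 1.42, 1.35, 2.55 and 2.63 FPKM in air and 0.587, 0.954, 0.353 and 0.803 in the 4 silica libraries, all below air, with 1.98 in replicate 3. It fell by 0.84 ± 0.22 (limma adjusted p = 0.0041), the largest fall among all called genes, and by 1.06 without replicate 3. Lilrb3l fell by 0.52 (0.55) and its group ranges overlapped, 2.42 to 4.63 in air and 1.95 to 2.92 in silica. It can share reads with the other leukocyte immunoglobulin-like receptor genes. The FPKM of all 26 listed receptors in the table summed to 168 to 230 in air, 266 to 369 in the 4 silica libraries and 166 in replicate 3.

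Among 7 leukocyte integrin and adhesion genes, 2 rose and 2 fell, and 3 rose and 2 fell without replicate 3. Itgam, the alpha M chain of the complement receptor of neutrophils and macrophages, rose by 0.94 ± 0.20 (1.27 without replicate 3) from 6.68, 3.92, 3.93, 2.89 and 2.93 FPKM in air to 11.7, 7.69, 2.95, 11.7 and 9.76 in silica. One air value, replicate 1, came close to the lowest of the 4 high silica values. Itgax, the alpha X chain of macrophages and dendritic cells, rose by 0.48 (0.67). Itgad, the alpha D chain, fell by 0.53 (0.55). It rested on air replicate 1 at 4.31 FPKM and lost its call without air replicate 1 (limma adjusted p = 0.0766, change -0.32). Spn, leukosialin of lymphocytes and other leukocytes, fell by 0.35 (0.38). It lost its call without any 1 of air replicates 1 and 3 and silica replicates 1, 2 and 4 (limma adjusted p from 0.0604 to 0.201, change from -0.21 to -0.34), with the smallest change, over 1.5 times below that with all 5, without air replicate 1. Itgal, the alpha L chain that leukocytes use to bind other cells, was called higher without replicate 3, at 0.28, and not with all 5, at 0.19.

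Genes of proteolysis at the cell surface rose in 5 of 11 members and fell in none, 7 and 1 without replicate 3. After quantile normalization 5 rose and 1 fell with all 5, and 7 rose and 2 fell without replicate 3. Plaur, the urokinase receptor that focuses plasmin formation on the surface of migrating cells, stood at 3.43, 2.36, 3.24, 2.42 and 3.35 FPKM in air and 9.04, 5.63, 2.69, 8.67 and 8.06 in silica. The 4 high silica values lay well above the highest air value, and replicate 3 lay inside the air range. Plaur rose by 0.99 ± 0.17 (limma adjusted p = 3.02e-05), and by 1.26 without replicate 3. Spint2, an inhibitor of epithelial serine proteases, rose by 0.43 (0.54), and Hpn, the membrane serine protease hepsin, by 0.48 (0.57). Furin, which cleaves precursors such as that of transforming growth factor beta, was higher in all 5 silica libraries than in any air library. Its values were 13.3, 11.7, 9.92, 11.3 and 8.68 in air and 15.5, 14.3, 13.4, 15.2 and 15 in silica, with replicate 3 lowest of the silica group by a small margin over air replicate 1, and it rose by 0.41 ± 0.089 (0.45).

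Arginase, iron and oxidant defence genes rose in 6 of 16 and fell in 1, and rose in 7 and fell in 2 without replicate 3. Sod2, the superoxide dismutase of mitochondria, stood at 23.3, 24.1, 28.1, 26.2 and 29.5 FPKM in air and 76.8, 45.2, 25.7, 59.1 and 54 in silica, and rose by 0.90 ± 0.15 (1.13 without replicate 3). Ftl1, the ferritin light chain that stores iron, stood at 90.8, 103, 119.6, 108 and 104 in air and 281, 144, 87, 253 and 234 in silica, and rose by 0.81 (1.08). Arg1, which splits arginine and marks alternatively activated macrophages of rodents, rose by 0.87 (1.15), with 4.07 to 6.93 in air and 10.4 to 15.7 in the 4 silica libraries. In Sod2 and Arg1 replicate 3 lay inside the air range, and in Ftl1 just below it. Sepw1, a small selenoprotein, differed from them. Its silica values, 11.1, 10.6, 10.8, 10.3 and 13.4, all lay above the air values, 9.61, 8.27, 8.75, 7.07 and 9.55, with replicate 3 in the middle of its group, and it rose by 0.36 (0.37). Map3k5, a kinase of the oxidant stress response, was the member that fell with all 5, by 0.20 (0.20), and lost its call without silica replicate 5 (limma adjusted p = 0.0679, change -0.18).

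Lysosome genes rose in 8 of 18 and fell in none, 9 and none without replicate 3. Tmem86a, a lysoplasmalogenase, stood at 1.18, 1.33, 1.63, 1.11 and 1.63 FPKM in air and 6.68, 2.23, 1.0, 6.29 and 4.34 in silica and rose by 1.09 ± 0.21 (1.44 without replicate 3). Its 4 high silica values spread from 2.23 to 6.68, and replicate 3 lay under every air value. Pld3, a lysosomal nuclease, rose by 0.84 (1.12), Prcp, a peptidase, by 0.60 (0.82), and Tpp1, a peptidase that trims lysosomal proteins, by 0.40 (0.48). Not all lysosomal enzymes moved. Smpd1, acid sphingomyelinase, changed by -0.06 and Ctsc, cathepsin C, by 0.07, neither called in either fit. Rnaset2, a lysosomal ribonuclease outside the list, stood at 11, 10.9, 11.2, 11.1 and 12.4 in air and 32.7, 19.1, 9.8, 27.3 and 29.4 in silica and rose by 0.92 ± 0.19 (1.20), with replicate 3 again under every air value.

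Of 5 genes of extracellular nucleotides and purine receptors, 2 rose and 1 fell, and 4 rose and 1 fell without replicate 3. Enpp3, an ectoenzyme that splits nucleotides at the cell surface, stood at 7.36, 9.38, 11.6, 9.92 and 9.86 FPKM in air and 30.7, 19.99, 10.3, 24.5 and 21.7 in silica, and rose by 1.05 ± 0.16 (limma adjusted p = 1.15e-05; 1.28 without replicate 3). P2ry2, a receptor of extracellular ATP and UTP, rose by 0.81 (1.07). Enpp1, the relative of Enpp3 that makes pyrophosphate, went the other way and fell by 0.25 (0.30), with air values of 4.38 to 5.39 FPKM above the 3.82 to 4.16 of the 4 silica libraries.

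Alveolar type 2 related genes rose in 5 of 8 and fell in none, with a median of 0.36, and in 6 of 8 with a median of 0.48 without replicate 3. Napsa, the protease that processes surfactant protein B, stood at 81.1, 91.4, 95, 83.1 and 85 FPKM in air and 191, 128, 76.5, 165 and 159 in silica. Replicate 3 lay below all air libraries, and the other 4 lay above all of them. Napsa rose by 0.66 ± 0.11 (limma adjusted p = 3.02e-05), and by 0.87 without replicate 3. Lpcat1, which makes surfactant phospholipid, rose by 0.61 (0.78), Cxcl17, a chemokine of mucosal surfaces, by 0.60 (0.72), and Cebpa, a transcription factor of type 2 cell and myeloid differentiation, by 0.50 (0.60). Scnn1b, a subunit of the epithelial sodium channel, was called without replicate 3 (0.36), while the partner subunit Scnn1g, at 0.05, was called in neither fit. The summed FPKM of the list was 211 to 258 in air, 316 to 442 in the 4 silica libraries and 219 in replicate 3.

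Of 12 tested genes of the airway and other lung surfaces, 5 rose and none fell, and 6 rose without replicate 3. After median centring or quantile normalization 1 fell, with and without replicate 3. The genes that rose numbered the same. Besides Spint2 the risers included Tmc4, a channel-like membrane protein (0.31 with and 0.44 without replicate 3), Lsr, a protein of tricellular junctions (0.33 and 0.44), and Folr2, a folate receptor that macrophages also carry (0.62 and 0.81). Tmc4 lost its call without any 1 of silica replicates 1 and 4 (limma adjusted p from 0.0525 to 0.0527, change 0.25), Lsr without silica replicate 1 (limma adjusted p = 0.0788, change 0.26) and Folr2 without any 1 of air replicates 1 and 4 and silica replicates 1, 4 and 5 (limma adjusted p from 0.0658 to 0.0887, change from 0.54 to 0.56). The cytochrome P450 genes of airway secretory cells did not pass the test. Cyp2f4 ranged over 7.69 to 22.1 FPKM in air and 4.46 to 17 in silica, and Cyp2a3 over 6.46 to 30.5 and 5.38 to 22.1. Among 12 genes of motile and primary cilia, 1 fell with all 5 libraries, Tppp, a tubulin-binding protein, by 0.46 (0.54). Without replicate 3 Cfap46, a protein of the ciliary central apparatus (-0.37), and Kif7, a ciliary regulator of hedgehog signalling (-0.22), were called as well. The list median was -0.17 with all 5. The sums of the cilia genes overlapped, 42.0 to 52.0 FPKM in air and 33.5 to 43.0 in silica.

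Endothelial and Notch genes fell in 7 of 13 and rose in 1, with a median of -0.37, and fell in 9 with a median of -0.45 without replicate 3. Rasip1, which endothelial cells need to form open vessels, stood at 25.1, 21.2, 20.2, 20.9 and 20.5 FPKM in air and 11.6, 15.5, 12.1 and 14 in the 4 silica libraries, with 22.8 in replicate 3. No value of the 4 reached the air range, and replicate 3 lay inside it. Rasip1 fell by 0.53 ± 0.11 (limma adjusted p = 0.000502), and by 0.68 without replicate 3. Ehd2, a protein of the neck of caveolae, fell by 0.33 (0.41). Prkcdbp, the caveolar protein cavin 3, separated the groups with all 5 libraries. It stood at 13.6, 13.3, 11.6, 10.9 and 17.2 in air and 8.49, 9.32, 10.6, 7.64 and 8.23 in silica, with replicate 3 highest among the silica values and below every air value, and fell by 0.55 ± 0.10 (0.62). Dll1, which activates Notch on neighbouring cells, fell by 0.62 (0.67), but its ranges overlapped, 3.56 to 7.21 in air and 2.16 to 4.42 in silica, and the call was lost without any 1 of air replicates 1, 2 and 4 and silica replicates 1 and 4 (limma adjusted p from 0.0609 to 0.122, change from -0.50 to -0.59). Vasp, a regulator of actin filaments in many cell types, was the member that rose, by 0.44 (0.54). The list sum was 207 to 240 FPKM in air, 179 to 205 in the 4 silica libraries and 222 in replicate 3.

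Of 9 genes of cyclic AMP and prostacyclin signalling, 6 fell and none rose, and without replicate 3 7 fell. Akap12, a scaffold that holds protein kinase A near its targets, stood at 24.2, 23.4, 19.5, 20.3 and 18.5 FPKM in air and 12.6, 16.1, 23.9, 10.5 and 11.8 in silica. Replicate 3 was inside the air range, and the other 4 lay below it. Akap12 fell by 0.54 ± 0.12 (limma adjusted p = 0.000956), and by 0.72 without replicate 3. Pde2a, a phosphodiesterase that breaks down cyclic nucleotides, fell by 0.45 (0.62), the adenylyl cyclase gene Adcy2, which makes cyclic AMP, by 0.47 (0.62), and Arrb1, a receptor desensitizer, by 0.23 (0.27). Adcy2 lost its call without silica replicate 4 (limma adjusted p = 0.0664, change -0.31). Ptgir, the prostacyclin receptor itself, changed by -0.11 and was not called. Prkcdbp, Ptgir and Adm, the vasodilator peptide adrenomedullin, are on this list and on the endothelial one. Adm fell by 0.37 (0.49), a value that is the median of both lists with all 5, and lost its call without any 1 of air replicates 1, 2 and 5 and silica replicates 1, 4 and 5 (limma adjusted p from 0.071 to 0.132, change from -0.31 to -0.36). Of the insulin-like growth factor receptors, Igf1r, the signalling receptor, fell by 0.46 ± 0.096 (0.57), while Igf2r, which carries lysosomal enzymes and clears the ligand, rose by 0.31 ± 0.068 (0.43).

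Lipid and fat cell genes split, with 4 higher and 6 lower of 16 in both fits (1 higher and 6 lower after quantile normalization). Among those that fell, Slc7a10, an amino acid transporter found in fat cells, stood at 9.57, 10.2, 8.91, 8.23 and 10.04 FPKM in air and 4.12, 6.18, 9.82, 3.31 and 5.46 in silica. The 4 other silica values lay below every air value, with replicate 3 inside the air range, and the change was -0.74 ± 0.14 (limma adjusted p = 0.00014; -0.94 without replicate 3). Lipe, hormone-sensitive lipase, did not overlap even with replicate 3, at 12, 12.4, 11.1, 10.6 and 10.2 in air and 5.82, 8.17, 10.1, 6.33 and 6.45 in silica, and fell by 0.60 ± 0.10 (0.72). Plin1, a further fat cell marker, was near absent from both groups and was not tested. It ranged over 0 to 0.688 FPKM in air and 0 to 0.258 in silica. Acsm5, a medium-chain acyl-CoA synthetase, fell by 0.45 (0.53) and lost its call without silica replicate 5 (limma adjusted p = 0.0557, change -0.36). Among those that rose, Dgat2, which completes triglycerides, stood at 5.95 to 9.13 FPKM in air and at 13.4 to 19.3 in the 4 silica libraries and rose by 0.84 ± 0.15 (1.14). Abhd2, a lipid hydrolase, rose by 0.24 (0.31), but was not called after quantile normalization.

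Matrix and TGF-beta genes rose in 5 and fell in 4 of 18 with all 5 libraries, and rose in 6 and fell in 10 without replicate 3. After quantile normalization the count with all 5 was 3 higher and 8 lower. Tgfb1, the main fibrogenic growth factor, ranged over 4.63, 4.08, 3.74, 5.4 and 2.88 FPKM in air and 5.71, 5.35, 6.44, 7.22 and 6.45 in silica. Here replicate 3 had the middle of the 5 silica values, and the lowest silica value, of replicate 2, lay just under the highest air value. Tgfb1 rose by 0.55 ± 0.12 (limma adjusted p = 0.000633), and by 0.54 ± 0.13 without replicate 3. Spon1, a secreted matrix protein, fell by 0.47 (0.61), and Adamtsl3, a matrix glycoprotein of the ADAMTS-like family, by 0.39 (0.52). Called only without replicate 3 were 7 members. Lower were Ltbp4, which anchors latent TGF-beta in elastic fibres (-0.49), Lrrc32, which holds it at the cell surface (-0.46), P4ha3, a collagen prolyl hydroxylase (-0.37), Serpinh1, the collagen chaperone (-0.21), Adamts17, a secreted metalloprotease (-0.46), and Smoc2, a matricellular protein (-0.19), and Cpxm2, a carboxypeptidase-like protein, was higher (0.45). Ctgf, a matricellular target of TGF-beta, ranged over 21.9 to 29.9 in air and 24 to 28.1 in silica and changed by 0.04.

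Cell cycle and replication genes rose in 6 of 11 and fell in none in both fits. Mki67, a marker of dividing cells, stood at 1.56, 1.37, 1.37, 1.12 and 1.25 FPKM in air and 3.52, 2.53, 1.12, 3.23 and 3.08 in silica. The 4 other silica values lay well above the highest air value, and replicate 3 lay at the lowest one. Mki67 rose by 0.74 ± 0.13 (limma adjusted p = 5.47e-05), and by 0.96 without replicate 3. Prc1, which builds the midzone of the spindle, rose by 0.62 (0.80), Rrm1, a subunit of ribonucleotide reductase, by 0.35 (0.45), Kif22, a mitotic motor, by 0.56 (0.73), Lig1, the replicative DNA ligase, by 0.31 (0.37), and Iqgap1, a scaffold of the cytoskeleton, by 0.30 (0.37). Iqgap1 was not called after quantile normalization. Glycolysis and mitochondrial genes rose in 5 of 19, and in 10 without replicate 3, where 14.6% and 21.9% of all tested genes rose. The count without replicate 3 depended on the scaling. It was 6 higher after median centring, and 5 higher and 1 lower after quantile normalization. Ldha, lactate dehydrogenase A, rose by 0.48 (0.59), the glycolytic enzyme gene Aldoa by 0.41 (0.54), Mpc1, the mitochondrial pyruvate carrier, by 0.37 (0.46), and Etfb, an electron carrier of fat oxidation, by 0.37 (0.54). Etfb lost its call without silica replicate 1 (limma adjusted p = 0.0614, change 0.27).

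Ribosome genes rose in 3 of 15, Rps16, Fbl and Rpl28, and in 4 without replicate 3, near the 14.6% and 21.9% of all tested genes. Their median change of 0.081 turned to -0.037 after quantile normalization. Rps16, a protein of the small subunit, stood at 42.4, 43.7, 19, 37.5 and 4.96 FPKM in air and 50.1, 62.8, 58.8, 57.1 and 72.3 in silica. Its silica values, replicate 3 included, were all above air, but the air values spread over nearly 9 times, and Rps16 lost its call without air replicate 5 (limma adjusted p = 0.0922, change 0.81). The change was 1.34 ± 0.39, and 1.35 ± 0.42 without silica replicate 3. Ribosomal protein genes have many processed copies that can take their reads, so its level is uncertain. Fbl, which methylates ribosomal RNA, rose by 0.41 (0.43), with all silica values above all air values. Rpl28 rose by 0.24 (0.30) and lost its call without any 1 of air replicates 4 and 5 and silica replicates 1 and 5 (limma adjusted p from 0.0599 to 0.0844, change from 0.21 to 0.22) and after quantile normalization.

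In the list of NF-kB, TNF and interferon genes 5 of 23 rose, where 23.6% of all genes tested were called in either direction, 7 rose and 2 fell without replicate 3, and the median change was -0.021 with all 5. Centring each library on its median gave 5 higher and 5 lower, and quantile normalization 3 and 5. The members that rose included Tgfb1, Bcl3, a nuclear partner of NF-kB (0.55 with and 0.65 without replicate 3), Nfkbib, an inhibitor of it (0.39 and 0.42), and Ifngr1, a chain of the interferon gamma receptor (0.27 and 0.32). Nfkbib ranged over 2.36 to 3.35 FPKM in air and 3.74 to 4.67 in silica without overlap. Ifngr1 lost its call without any 1 of air replicate 5 and silica replicate 1 (limma adjusted p from 0.0555 to 0.122, change from 0.18 to 0.25) and after quantile normalization. Relb, Tnfaip3 and Ifitm3, other members of these pathways, changed by -0.0015, -0.03 and 0.05 and were called in neither fit.

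Among 7 T cell and lymphocyte genes, 2 fell, Spn and Nkg7, and without replicate 3 these fell and 1 rose, Itgal. Nkg7, a granule protein of natural killer and cytotoxic T cells, stood at 25.9, 15.7, 17.3, 11.1 and 13.9 FPKM in air and 9.14, 11.8, 10.5, 10.4 and 8.35 in silica. Replicate 3 lay second highest in its group here, all 5 silica values lay below the air mean, and the ranges overlapped slightly at the lowest air value. Nkg7 fell by 0.67 ± 0.14 (limma adjusted p = 0.000543), and by 0.69 ± 0.15 without replicate 3. Lat, the adaptor of the T cell receptor, changed by 0.04. Of 6 B cell genes none was called with all 5, the list median was -0.21, and Il4r, the interleukin 4 receptor that many leukocytes carry, was called without replicate 3 (-0.30). Cd22, an inhibitory receptor of B cells, changed by -0.24 and was not called in either fit.

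Signs of other tissue in the lung pieces were examined as well. Heart and striated muscle genes varied widely between rats in both groups. Their summed FPKM was 10.8 to 46.8 in air and 7.66 to 51.1 in silica, highest in silica replicate 3, and Tnni3, cardiac troponin I, ranged over 0.995 to 20.1 in air and 0.802 to 16.9 in silica. One of the 7 tested members was called, Alpk3, a kinase of striated muscle, which fell by 0.35 ± 0.10 (0.41) and did not overlap between the groups. Whether tissue content has a part in its change was not tested. The globin gene Hbb ranged over 1041 to 1734 in air and 738 to 1219.9 in silica, changed by -0.45 ± 0.19 (limma adjusted p = 0.0755), and was called without replicate 3 at -0.49 (adjusted p = 0.0494). The erythrocyte sum was 1138 to 1896 in air and 806 to 1335 in silica. Neither clock gene was called with all 5, and Arntl was called without replicate 3 (-0.30). None of the 3 tested genes of the list for immediate early response and handling stress (Ppp1r15a, Zfp36 and Hspb6) was called in either fit.

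**Figure D4:**
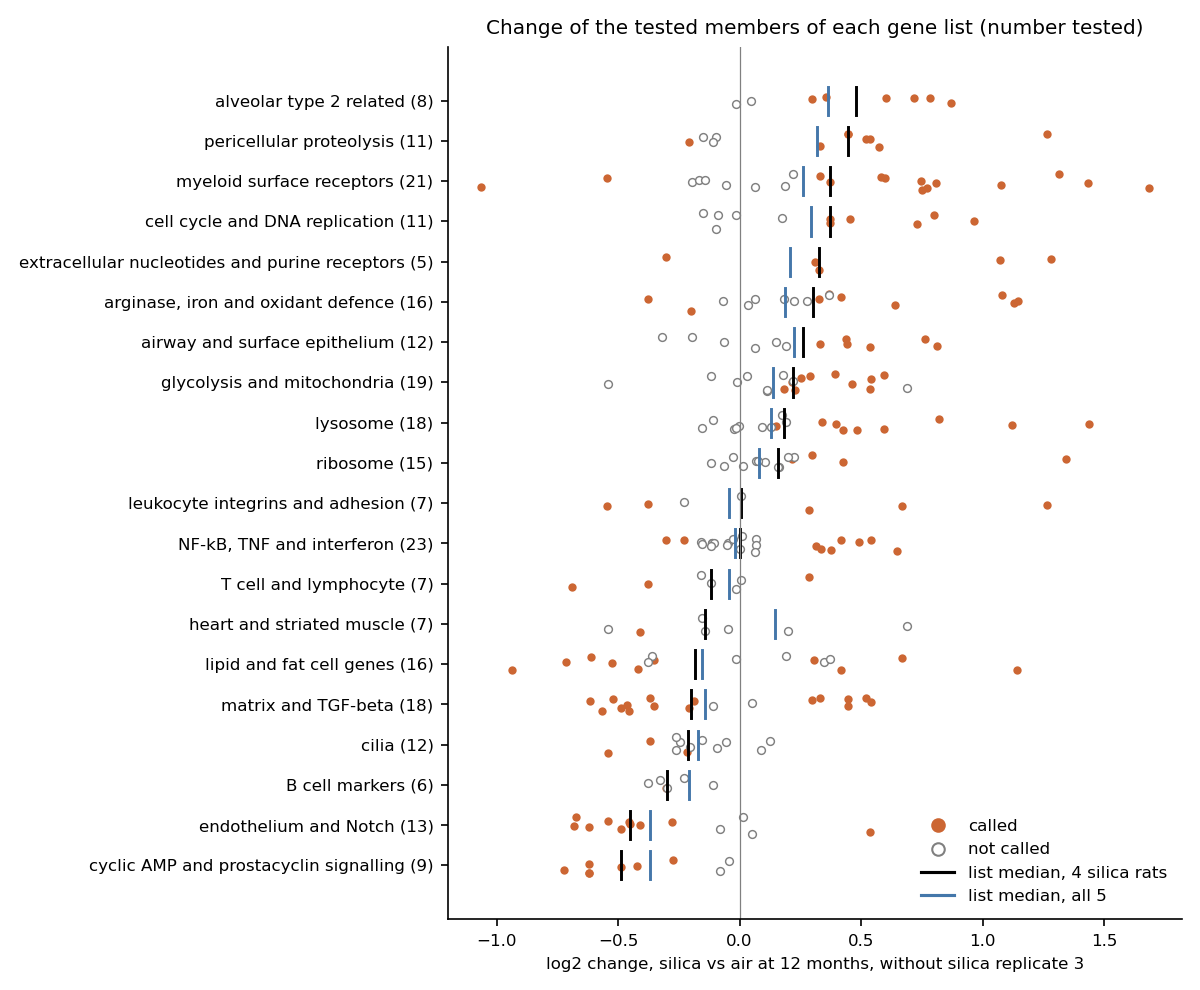
Log2 change between silica and air at 12 months without silica replicate 3 (x axis) of each tested member of the 20 gene lists with at least 5 tested genes (y axis, with their number), filled where called, with the list median without replicate 3 in black and with all 5 silica rats in blue. The alveolar type 2 list has medians of 0.36 with all 5 and 0.48 without replicate 3, the highest of the lists plotted, and the endothelial and cyclic AMP lists have the lowest, -0.37 each with all 5, which is the value of Adm, a member of both.

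Over the 25 lists 235 distinct genes were tested, of which 68 were higher and 30 lower with all 5 silica libraries. The lists were written with results of these data known, so their counts describe the members. Nothing is read from a difference to the shares of all tested genes. These were 14.6% higher and 9.08% lower with all 5, and 21.9% and 13.8% without replicate 3. Further genes with large changes belonged to no list. Meis3, a homeobox transcription factor, stood at 2.43, 2.53, 2.46, 2.58 and 2.62 FPKM in air and 6.85, 3.78, 2.43, 9.38 and 6.58 in silica and rose by 0.93 ± 0.22 (1.18 without replicate 3). Nell1, a secreted protein of bone formation, stood at 2.69, 2.02, 2.26, 2.35 and 2.59 in air and 1.18, 1.7, 1.82, 1.08 and 1.18 in silica, with no overlap, and fell by 0.62 ± 0.14 (0.70). Ccdc8, a partner of cullin complexes, fell by 0.54 (0.68). Trnae-cuc was called higher, but it was listed at 0 in all 5 air libraries and in silica replicate 2 and ranged from 14.1 to 222 FPKM in the others, so no fold is given.

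Genes called only without replicate 3 were moderate in size. Among those with a mean of at least 1 FPKM the largest rises were Rasl2-9 (0.49), Dmrtc2 (0.49), Ndufa3 (0.48), a subunit of respiratory complex I, Tfpt (0.47), Cpxm2, Anapc15 (0.44), a subunit of the complex that ends mitosis, Syne4 (0.44) and Paox (0.44), a polyamine oxidase. The largest falls were Fxyd7 (-0.76), Omp (-0.64), Lyve1 (-0.50), the hyaluronan receptor of lymphatic vessels, Hbb, Ltbp4, Me3 (-0.48), a mitochondrial malic enzyme, Gng8 (-0.47) and Ppapdc1a (-0.47). With all 5 libraries these 16 genes had limma adjusted p between 0.0502 and 0.207. Rasl2-9 was higher in all 5 silica libraries than in any air library and still missed the threshold with all 5 (adjusted p = 0.0502). In Gng8, replicate 3 stood at 16.8 FPKM, above every other 12-month library, against 8.2 to 8.88 in the other silica rats.

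A few genes stood at a silica level in replicate 3. Rspo3, which strengthens Wnt signalling and lies under 1 FPKM on average, was singled out after its values were seen. It stood at 0.164, 0.375, 0.185, 0.291 and 0.344 in air and 1.14, 1.07, 0.881, 1.57 and 1.82 in silica. Every silica value was more than 2 times the highest air value, although replicate 3 was the lowest, and the change was 1.20 ± 0.19 (limma adjusted p = 1.28e-05) with all 5 and 1.29 ± 0.20 without replicate 3. Saal1, likewise under 1 FPKM and chosen after its values were seen, showed the other pattern, with 0.0401 to 0.335 in air, 1.55 to 2.21 in the 4 silica libraries and 0.18 in replicate 3. Genes with a silica level in replicate 3 were few. It lay beyond the air range on the silica side for 40 of the 393 genes of 9 months and on the opposite side for 95. Single air libraries, each set against the other 4, had 46 to 121 on the silica side, so the 40 do not show a kept silica effect.

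The silica effect at 12 months was set against those at 9 and 18 months and against the mean of the 5 other times, each time with its own air rats. Of the 302 genes called at 12 months, 214 were also called at 9 months, all in the same direction, where 393 genes (30.8%) were called in all. At 18 months the total was 196 (15.3%). At all 6 times 42 were called, and 47 (73 without replicate 3) at 12 months and no other, which does not show that they differ between times. The difference itself was called for 0 genes (0%) against 9 months by limma (78, or 6.1%, at unadjusted p under 0.05, and without replicate 3 0 and 63, or 4.93%). Against 18 months it was called for 0 (63, or 4.93%, at unadjusted p under 0.05, and without replicate 3 0 and 125, or 9.78%). Against the mean of the other times it was called for 0 genes with all 5 libraries (111, or 8.69%, at unadjusted p under 0.05) and for 3, or 0.235%, without replicate 3 (164, or 12.8%).

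**Figure D5:**
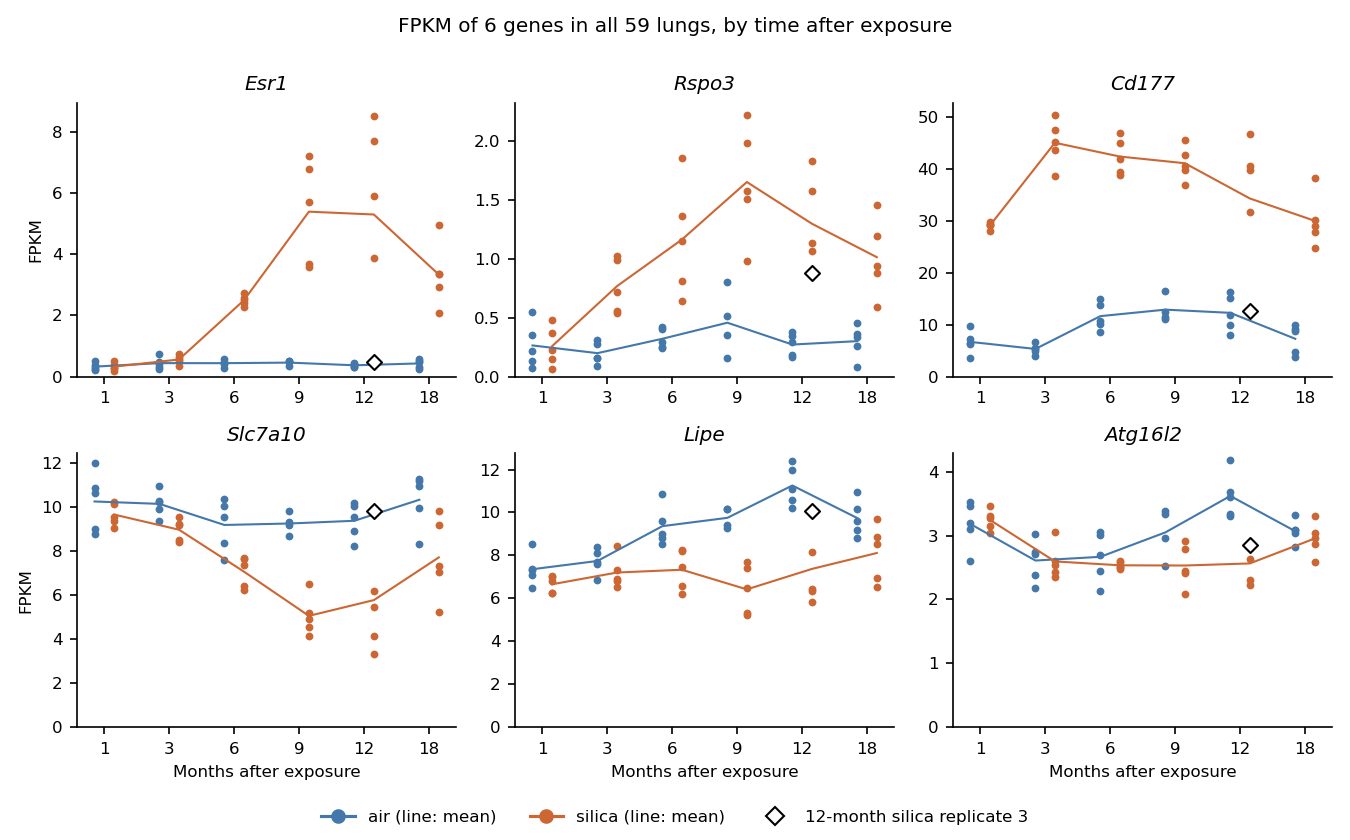
FPKM (y axis, from 0) of 6 genes in all 59 lungs at each time after exposure (x axis in months, evenly spaced and not to scale), with lines through the group means over all rats and 12-month silica replicate 3 as an open diamond. Esr1 and Rspo3 are near air levels in silica at 1 month. Esr1 is clearly higher from 6 to 18 months, apart from replicate 3 at 12 months, and Rspo3 from 3 to 18 months. Slc7a10 is lowest in silica at 9 and 12 months.

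The 3 genes were Esr1, Slc7a10 and Atg16l2. Esr1 in silica averaged 0.327 ± 0.129 FPKM (SD, n = 5) at 1 month, 0.561 ± 0.138 at 3, 2.5 ± 0.178 at 6, 5.4 ± 1.7 at 9, 6.51 ± 2.06 at 12 without replicate 3 (5.3 ± 3.24 with it), and 3.34 ± 1.05 at 18 months (SD, n = 5, and 4 without replicate 3). Air stayed between 0.327 and 0.459 on average. Its change at 12 months exceeded the mean of the others by 1.67 ± 0.19 (SE; limma adjusted p = 1.68e-08) without replicate 3, and by 1.11 ± 0.30 (adjusted p = 0.161) with it. Leaving out 1 further 12-month library kept the call in all 9 cases. Against 9 months alone the difference was -0.18 with all 5 and 0.38 ± 0.25 without replicate 3 (adjusted p = 0.934 and 0.93), and against 18 months it was 0.39 and 0.95 ± 0.24 (adjusted p = 0.999 and 0.127). Slc7a10 fell more at 12 months than in the mean of the others by 0.57 ± 0.14 without replicate 3 (adjusted p = 0.0436), and its adjusted p ranged from 0.00313 to 0.241 when 1 more library was left out. Atg16l2, a relative of an autophagy protein, stood at 3.33, 3.6, 3.3, 3.69 and 4.18 FPKM in air and 2.22, 2.3, 2.86, 2.81 and 2.63 in silica at 12 months, without overlap, and changed by -0.43 ± 0.082 (-0.46). At 1, 3, 6, 9 and 18 months its changes were 0.03, -0.0041, -0.05, -0.23 and -0.05. The difference from their mean was -0.40 ± 0.095 without replicate 3 (adjusted p = 0.0436, from 0.0277 to 0.196 with 1 more library left out), and it was not called with all 5. Cd177 changed by 2.1 at 1 month, 2.98 at 3 months, 1.65 at 9 and 2.04 at 18. At 6 months Cd177 ranged over 8.56 to 14.9 FPKM in air and 38.8 to 46.8 in silica. Its change at 12 months, 1.36 (1.68 without replicate 3), was not called different from the mean of the other times in either fit.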

How the data were processed

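RNA-seq of rat lung was analysed from 1 deposited table of FPKM values, in which each of the 59 libraries is a column. Per the labels' protocols the authors extracted total RNA with DNase treatment and made stranded libraries after ribosomal RNA depletion. The submitters' processing notes list, with no role or order, Cufflinks 2.1.1, Bowtie2 2.2.9, TopHat2 2.0.9, Trimmomatic 0.35 and bcl2fastq 2.19. The build and annotation are not given in the sources used here, and FPKM was taken as deposited by the authors. The last of 2888 entries held 31 of 59 values and was left out, leaving 2887. Gene names were matched to RefSeq GRCr8 (1729 by symbol, 332 by synonym).

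The 1278 entries reaching 1 FPKM in 4 or more libraries entered a test of log2(FPKM + 0.5) with limma 3.58.1 in R 4.3.3, with a mean-variance trend and 1 mean per group in 1 fit of all 12 groups (47 residual degrees of freedom), and Benjamini-Hochberg adjustment over all 1278. The silica effect at 12 months was also contrasted with that at 9 and 18 months and with the mean of the 5 other times. FPKM keeps no read counts and no count test was run. Low values were partly multiples of a step (67.1% of 1997 values of 261 low entries lay within 0.1 of 1 step), which gave the relative depth. The procedure was tested on simulated data. These gave a gene the same spread in all groups and set no library apart, so they did not test the use of a shared spread.

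Named genes were the 16 largest rises and 12 largest falls of called genes that carry a symbol and average 1 FPKM or more, the 8 largest rises and 8 largest falls called only without silica replicate 3, up to 8 genes per contrast between times by smallest p, and up to 4 members per gene list by smallest p. Other list members are given by value, and Rspo3, Saal1, Atg16l2, Adm and Rasl2-9 were dwelt on after their values were seen. The comparison, the gene lists and the tests were chosen with earlier results of these data known. Replicate numbers follow accession order. Alternatives were other pseudocounts (1 and 0.1), no filter, median centring, quantile normalization, array weights, robust empirical Bayes, the 12-month libraries alone and leaving out each 12-month library. Combinations of these with the omission of silica replicate 3 were added after the data were seen.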

Additional observations from a re-analysis of the deposited data

Results flagged for a closer look

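The silica effect at 12 months differed from the mean of the 5 other times for 3 genes when silica replicate 3 was left out (limma, adjusted p under 0.05). The difference was 1.67 for Esr1, -0.57 for Slc7a10 and -0.403 for Atg16l2. With all 5 silica libraries the adjusted p values were 0.161, 0.51 and 0.161. Without replicate 3 and 1 further 12-month library Esr1 stayed called in every case. Slc7a10 and Atg16l2 did not, with limma adjusted p up to 0.241 and 0.196. For none of the 3 was the difference between 12 and 9 months called, with or without replicate 3.

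Single rats stood apart from the other 4 of their group, by Dixon's criterion at 95%, in 20 of the 254 groups examined (127 genes in air and in silica), where chance alone gives about 1 in 20. In air replicate 1 these were Itgad at 4.31 FPKM, Itgam at 6.68 and Rasip1 at 25.1, all high, and Rasl2-9 at 0.745, low. In air replicate 2 Adcy2 was high at 4.53. In air replicate 4 Me3 at 0.799, Mpc1 at 16.4 and Smpd1 at 18.1 were low. In air replicate 5 Rnaset2 at 12.4 and Tnni3 at 20.1 were high and Nfkbib at 2.36 was low. In silica, Fbl was high in replicate 1 at 6.85, Ptgir high in replicate 2 at 3.75, Itgad low in replicate 4 at 0.923, and in replicate 5 Hbb was low at 738 and Sepw1 high at 13.4. Silica replicate 3 accounted for 4, with Alpk3 at 0.936 and Gng8 at 16.8 high and Ifngr1 at 27.4 and Rrm1 at 4.60 low.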

How the results depend on the processing

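The number of genes called at 12 months was 302 with all libraries and 253 to 398 under other pseudocounts, no filter, other scalings, array weights, robust estimation and the omission of single air libraries. A fit of the 12-month libraries alone called 1. Leaving out 1 library gave 195 to 457 calls, 195 without silica replicate 1, 198 without silica replicate 4 and 457 without silica replicate 3. Without replicate 3 and with median-centred libraries it was 485 (237 higher, 248 lower). Of 86 named genes called with all 5, Rspo3 kept its call under all 21 alternatives, 69 kept it under each but the fit of 12 months alone, Rspo3 among them, and 17 lost it under at least 1 other. For 1 gene, Hbb, the sign was lost, at a value of 0 under quantile normalization, which gives equal values to equal ranks, and Hbb ranked highest in 8 of the 10 libraries. The contrast with 18 months called 0 genes, but 2 under quantile normalization, LOC103690068 and LOC100361913, entries with equal values. The contrast with the mean of the other times called 0, but 2 under quantile normalization (the same pair), 1 under array weights (Esr1), 0 to 3 when 1 library was left out (3 without silica replicate 3), and without replicate 3 1 when median-centred (Esr1) and 6 when quantile-normalized (Esr1, Slc7a10, Lipe, Clasrp and that pair). Array weights gave silica replicate 3 a weight of 0.163, where the other 12-month libraries had 0.495 to 1.62. Why these calls moved was not tested. Placed on genes called in the mean of the other times, silica replicate 1 moved from 1.11 to 1.66, and replicate 3 lay at -0.279. The deposited values carry no read counts, so the precision of low genes is known only from the spread between rats. No paired analysis was possible because the labels give every library its own number and the replicate numbers used here follow accession order.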
